A study of Rattus norvegicus with 4 samples.

Results

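MHC class II and costimulatory genes were read as a set of 10: the chain genes RT1-Da, RT1-Db1, RT1-Ba and RT1-Bb, the invariant chain gene Cd74, the peptide editor genes RT1-DMa and RT1-DMb, the class II transactivator gene Ciita, and the costimulatory genes Cd80 and Cd86. They were taken by symbol, not by their values, through the RefSeq accession that each probe carries. All 10 were on the array, with 11 probes and 22 spots, among 16581 named genes. The cells were NR8383, a macrophage line established from the lung lavage of a normal rat, at 20 passages by its label. All 4 samples, biological replicates by the study's design, had 1 array each and were exposed for 4 h to Printex90, a carbon black, at 0.9 cm2/cm2. The labels add ALI without spelling it out, and describe the line as 50% adherent and 50% floating cells. The design also names untreated cells, for which no array was used here, and none of the values describes a response to the particles.

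Class II molecules are pairs of an alpha and a beta chain that carry peptides from the endosomes to the surface of a macrophage, dendritic cell or B cell, where CD4 T cells read them. The invariant chain fills the groove of a new molecule and guides it to the endosome, and the DM pair then helps to exchange the fragment left in the groove for a peptide. CIITA, itself induced by interferon-gamma in macrophages, switches class II genes on through a promoter module that they share. A T cell also needs a costimulatory signal, which CD80 and CD86 give to its receptor CD28. In the rat, RT1-D and RT1-B are the counterparts of human HLA-DR and HLA-DQ. Classical chain genes are polymorphic between strains, and the match of each probe to the alleles of this line was not tested.

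A spot counted as detected when the scanner software flagged it as well above background. Spots with this flag started at an intensity of 9.33, 9.69, 10.3 and 9.17 on replicates 1 to 4, and spots without it reached 17.7, 15.4, 17.6 and 16.7. The 308 negative-control spots had a median intensity of 2.91, 2.72, 3.19 and 2.85. All arrays lay on 1 slide and came from 1 scan, between 8917 and 9985 genes were detected on an array, and the correlation of 2 arrays over detected genes ranged from 0.9905 to 0.9935. A level is the log2 intensity minus that of the array's 75th percentile, which was 99.4, 83.8, 101 and 127 on replicates 1 to 4. Levels of different probes depend on the probes and were not ranked. All 8 macrophage markers looked up were detected on all 4 arrays, namely Csf1r, Ptprc, Itgam, Lyz2, Mrc1, Fcgr1a, Spi1 and the lysosomal glycoprotein gene Cd68, the last at 7.56 ± 0.21 (SD, n = 4). Of 6 alveolar macrophage genes, Pparg, Siglec5, Fabp4 and Fabp5 were detected on all 4 arrays, Marco on 1 and Car4 on none. By the same rule 50.8% of all named genes were detected on all 4 arrays.

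All 4 arrays detected 4 of the 10 genes, set beside 50.8% of all named genes. They were the beta chain genes RT1-Db1 and RT1-Bb and both DM genes. Ciita was detected on 1 array and Cd80 on 2, so 2 of 10 lay in between (12.3% of all named genes) and 6 of 10 had a signal on at least 1 array (63.1%), while Cd74, Cd86 and the alpha chain genes RT1-Da and RT1-Ba were detected on none. That last count, 4 of 10, stands beside 36.9% of all named genes. These shares are near those of the array as a whole and are not a result about the set. The count was also 4 of 10 when at least 3 of 4 arrays had to detect a gene (54% of all named genes), when the same single probe had to be detected throughout (50.7%), when every probe had to be (45%), and with the outlying spots kept (51.3%). Without replicate 1, 2, 3 or 4 it was again 4 of 10, beside 51.3%, 51.3%, 52.6% and 51.2% of all named genes. The median level over the 10 genes was -3.53, against -2.12 over all named genes with a level.

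**Figure D1:**
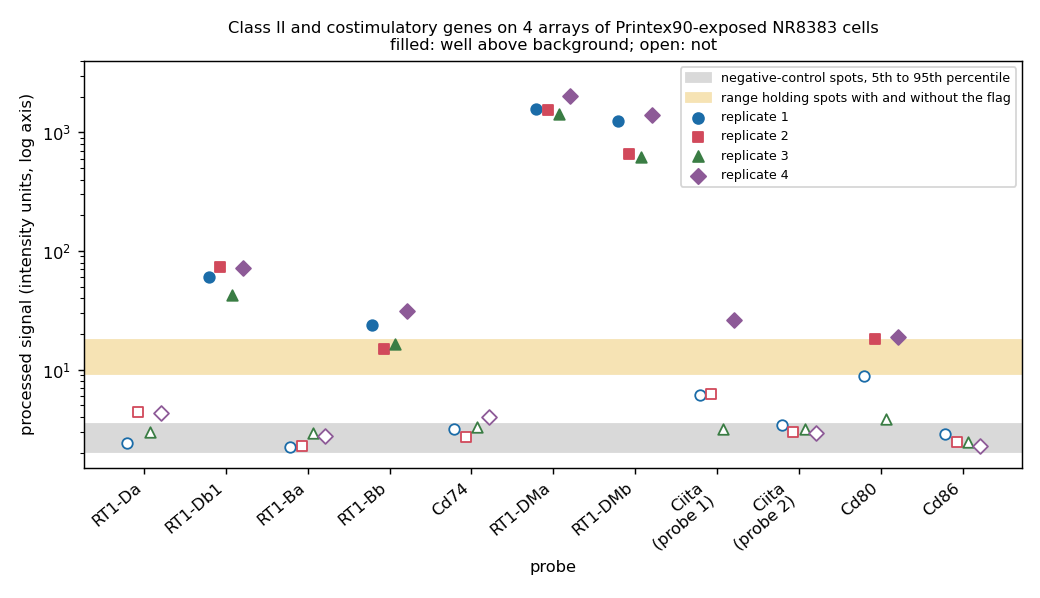
Processed signal of each probe (log axis, intensity units) on the 4 arrays, with filled symbols for arrays on which the probe was well above background, a grey band for negative-control spots and a yellow band for intensities at which spots with and without the flag both occurred. The DM genes lie far above both bands, RT1-Db1 lies above them, RT1-Bb lies inside the yellow band on replicates 2 and 3 and above it on replicates 1 and 4, and Cd74, RT1-Da, RT1-Ba and Cd86 below the yellow band.

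Among the classical chains, both beta chain genes were detected on every array and neither alpha chain gene on any. RT1-Db1, the beta chain of the RT1-D molecule, had an intensity of 60.7, 73.1, 42.7 and 71.7 on replicates 1 to 4. All 4 values lie well clear of the zone in which the flag varied. Its probe is printed on 2 spots, which read 51.5 and 71.6 on replicate 1, 64.4 and 83.0 on replicate 2, 33.8 and 53.8 on replicate 3, and 74.0 and 69.6 on replicate 4. Its level was -0.74 ± 0.43 (SD, n = 4), below the array's 75th percentile. The rat genome holds a further beta chain gene, RT1-Db2, whose own probe lacked the flag throughout, and sharing of transcripts between the 2 probes was not tested.

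RT1-Bb, the beta chain of the RT1-B molecule, had an intensity of 23.7, 14.9, 16.4 and 31.2. It carried the flag on all arrays, but on replicates 2 and 3 its intensity lay inside the range where other spots did not. Its level was -2.30 ± 0.30 (SD, n = 4).

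The alpha chain partners gave no such signal. RT1-Ba read 2.22, 2.27, 2.94 and 2.75 on replicates 1 to 4, which is the intensity of negative-control spots. RT1-Da is printed on 2 spots. One of them read 2.55, 2.50, 2.98 and 2.71. The other read 2.28, 7.66 and 6.76 on replicates 1, 2 and 4, and on replicate 3 it read 700 and was left out because the software flagged it as non-uniform. Spots around it were not brighter on replicate 3, with a median deviation of 0.02 on the log2 scale over 90 neighbours detected on every array, and 49.1% of its 218 neighbours were detected there, against 55.5%, 55.0% and 61.0% on replicates 1, 2 and 4. With that reading kept, RT1-Da would have counted as detected on replicate 3 alone.

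Upstream sequence was read for the class II genes because CIITA acts on them through a shared module of promoter elements, the X box and the Y box. RefSeq promoter windows of the GRCr8 build, 250 bases before to 50 after a transcription start, were found for 8 of the 10 genes, and not for RT1-DMb and Ciita. Stretches of 66 bases are given 5′ to 3′ on the gene's strand, with capitals for the 6 letters of the Y box core GATTGG, for a 7-letter stretch of the X box, ACNGATG, and for the X box core AGCAAC, which can overlap that stretch. The first 3 genes were detected on all arrays and the last 3 on none.
RT1-Db1, chr20:4560228-4560293, minus strand: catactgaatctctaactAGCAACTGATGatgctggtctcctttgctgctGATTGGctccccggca
RT1-Bb, chr20:4604165-4604230, minus strand: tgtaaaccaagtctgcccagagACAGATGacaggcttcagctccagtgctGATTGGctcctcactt
RT1-DMa, chr20:4712385-4712450, minus strand: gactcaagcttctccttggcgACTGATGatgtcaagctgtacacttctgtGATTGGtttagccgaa
RT1-Da, chr20:4515315-4515380, plus strand: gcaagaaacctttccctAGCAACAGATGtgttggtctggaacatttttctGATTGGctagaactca
RT1-Ba, chr20:4576963-4577028, plus strand: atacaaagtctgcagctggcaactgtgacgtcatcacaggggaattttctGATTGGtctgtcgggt
Cd74, chr18:56527121-56527186, plus strand: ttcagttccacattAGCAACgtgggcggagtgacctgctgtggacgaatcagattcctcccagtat

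The X box stretch paired with the Y box core was found in detected and in undetected class II genes. Searched on both strands, GATTGG occurred in 14.8% of 33469 promoter windows, AGCAAC in 14.7% and ACNGATG in 10.2%. The stretch followed by GATTGG after 12 to 30 letters occurred in 22 windows (0.0657%) of 21 genes, and 6 of these were class II genes. RT1-Db1, RT1-Bb and RT1-DMa, detected on all arrays, held it with 21, 21 and 22 letters between the elements. RT1-Da held it with 22 letters, RT1-DOb with 19 and RT1-Db2 with 20, and none of these 3 genes was detected on any array. RT1-DOa and RT1-Ha, also detected on no array, held the X box core and the Y box core but not the stretch. The letters of the stretch were chosen with these sequences in view, so its presence in them cannot decide whether it goes with detection. For the same reason the share of 0.0657% and the 6 class II genes among the 21 are not a result about class II genes. By exact match, RT1-Ba held the Y box core alone and Cd74 the X box core alone. Neither window of Cd80 nor that of Cd86 held any of the elements searched. Variants of these letters were not searched, so a missing match does not show that an element is absent.

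**Figure D2:**
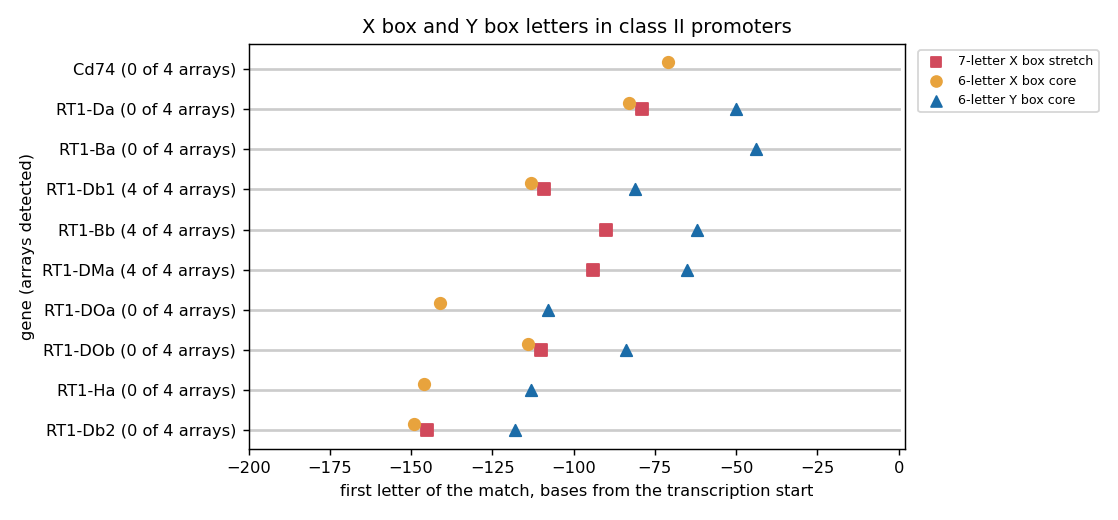
Distance in bases from the first letter of each match to the transcription start (x axis) for 10 class II genes, with squares for the 7-letter X box stretch, circles for the X box core and triangles for the Y box core. The Y box core lies 44 to 118 bases upstream in 9 of the genes, those detected on all 4 arrays and those detected on none alike.

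Cd74, the invariant chain gene, is the best measured of the undetected genes, since its probe is printed 10 times. Of 40 spot readings over the 4 arrays none was well above background, and 3 were left out as outliers. The kept spots had a median intensity of 3.33, 2.91, 3.33 and 3.06 on replicates 1 to 4, against 2.91, 2.72, 3.19 and 2.85 for negative-control spots. Their highest kept readings were 4.43, 3.03, 4.17 and 9.46. The less strict flag, for a signal that is positive and significant against background, was set on 9 of the 37 kept readings, 5 of them on replicate 4. On replicates 1 to 4 it was set on 3, 0, 1 and 5 of the kept Cd74 spots. Among the 308 negative-control spots it was set on 5, 7, 12 and 11. Cd74 was thus not well above background on any array, which limits its signal and does not show that the transcript was absent.

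**Figure D3:**
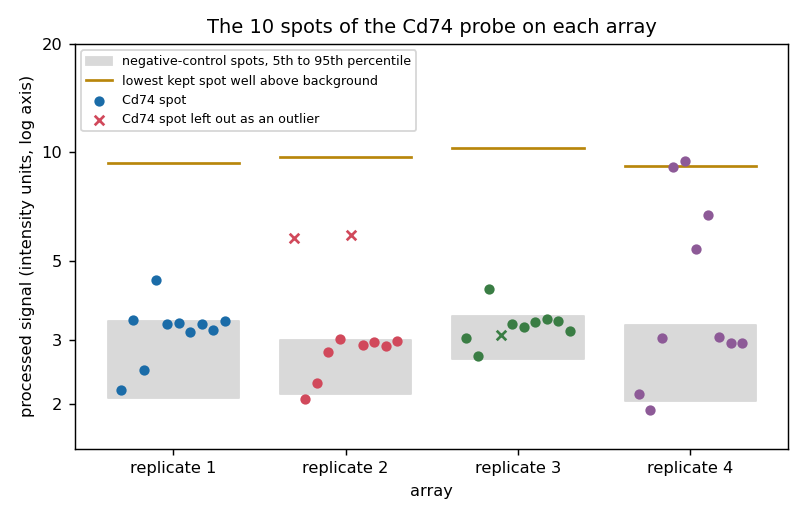
Processed signal (log axis, intensity units) of the 10 Cd74 spots on each array, with crosses for spots left out, a grey box for the 5th to 95th percentile of negative-control spots and a line at the lowest kept spot that was well above background. Most Cd74 spots lie within or at the edge of the grey box. On replicate 4 the spots at 5.39, 6.68, 9.11 and 9.46 lie above the box. The highest of these reaches the line at 9.17 without carrying the flag.

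The DM genes, whose products edit the peptides of class II molecules, were both detected on all 4 arrays. RT1-DMa had an intensity of 1568, 1535, 1432 and 2011 on replicates 1 to 4, and a level of 4.00 ± 0.15 (SD, n = 4). RT1-DMb had an intensity of 1241, 662.5, 625 and 1407, and a level of 3.18 ± 0.46 (SD, n = 4). Both stood far above the background zone on every array. Each has 1 probe on 1 spot. Neither RT1-DOa nor RT1-DOb, the genes of the DO pair that restrains DM, was detected on any array, with levels of -5.11 ± 0.23 and -4.75 ± 0.46 (SD, n = 4 for both), and RT1-Ha and RT1-Db2 were not detected either.

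On the 75th percentile scale, the 2 DM genes differed in how far the replicates lay apart. RT1-DMa had an SD of 0.15, close to the median SD of 0.17 (0.165 unrounded) over the 8424 genes detected on all arrays. The SD of RT1-DMb, 0.46, was reached by 3.29% of those genes, that of RT1-Db1, 0.43, by 4.27%, and that of RT1-Bb, 0.30, by 14%. These spreads depend on the processing and on single arrays. With normexp background correction the SD was 0.31 for RT1-DMa, 0.30 for RT1-DMb, 0.18 for RT1-Db1 and 0.12 for RT1-Bb, against a median of 0.14 over detected genes, so that the DM genes no longer stood apart from each other in spread. With the array median as the scale, the SD was 0.27 for RT1-Db1, 0.33 for RT1-Bb, 0.22 for RT1-DMa and 0.42 for RT1-DMb, against a median of 0.39 over detected genes. On that scale RT1-Db1, RT1-Bb and RT1-DMa thus lay below the median of detected genes, and RT1-DMb lay above it. Without replicate 2 the SD of RT1-Db1 was 0.28, that of RT1-DMa 0.09 and that of RT1-DMb 0.54. Without replicate 3 the SD of RT1-Db1 was 0.335 and that of RT1-DMb 0.341. RT1-DMb lay 0.46 above its mean on replicate 1, at -0.20 on replicate 2, at -0.55 on replicate 3 and 0.29 above it on replicate 4. The spots around it had median deviations of 0.07, -0.11, -0.20 and 0.11 over 73 neighbours detected on every array, the same signs at smaller size, and 15.7% of its neighbours were left out on replicate 3, against 0.95% to 1.43% on the other arrays. The part of this surrounding shift in the spread of RT1-DMb was not tested.

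All 4 detected genes were lowest on replicate 3, where 22.5% of all detected genes were. RT1-Db1 lay at -0.50 there, RT1-Bb at -0.32 and RT1-DMa at -0.17. All 4 were also lowest there with the 75th percentile of detected probes as the scale (27.9% of detected genes) and with the outlying spots kept (17.1%). Under other processing this order changed. With quantile normalization 3 of the 4 genes were lowest on replicate 3 (25.9% of detected genes), with normexp 2 (23.6%) and with the array median none (0.772%). RT1-Db1 and RT1-DMa were highest on replicate 2, RT1-DMb on replicate 1 and RT1-Bb on replicate 4.

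**Figure D4:**
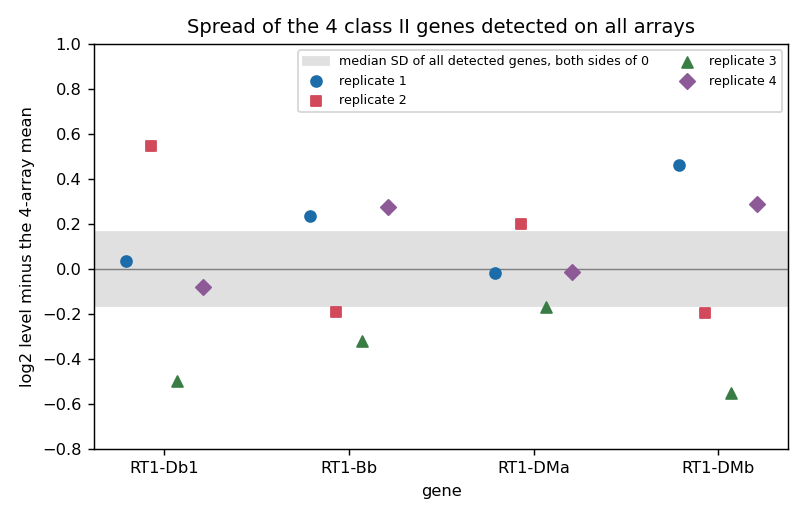
Log2 level of each gene detected on all 4 arrays minus its mean over the arrays (y axis), by gene (x axis) and replicate (symbol), with a grey band 0.165 to each side of 0 for the median SD of all detected genes. RT1-DMa stays within or near the band, while RT1-Db1 and RT1-DMb reach 0.55 and -0.55 from their means.

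Ciita, the switch of class II transcription, was read by 2 probes of 1 transcript. The first had an intensity of 6.07, 6.24, 3.14 and 26.4 on replicates 1 to 4 and was detected on replicate 4 alone. The second read 3.39, 2.99, 3.17 and 2.91, at the level of negative-control spots on every array. The probes therefore disagreed on replicate 4. Replicate 4 also had the most genes detected, 9985, and of 1014 genes detected on exactly 1 array 661 were detected there. Spots around the first probe were lower on replicate 4 than on the other arrays, with a median deviation of -0.41 over 80 neighbours.

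The factors that CIITA works with were mostly detected. Of 7 enhanceosome genes, whose products bind the X and Y boxes, 6 were detected on all 4 arrays, beside 50.8% of all named genes. The RFX complex gave Rfx5 at 1.31 ± 0.14, Rfxank at 1.71 ± 0.62 and Rfxap at 0.44 ± 0.22 (SD, n = 4 for all). Rfx5 had its highest level, 1.47, on replicate 3, where the spots around it had a median deviation of 0.27. There 90.0% of its neighbours were detected and 15.7% left out. Rfxank had a level of 0.80 on replicate 4, where the spots around it had a median deviation of -0.65. Nfya, a subunit of the Y box factor NF-Y, had a level of -1.39 ± 0.19 (SD, n = 4), and Nfyc and the cAMP response factor gene Creb1 were detected too. Nfyb, another NF-Y subunit, was not well above background with either of its 2 probes.

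Upstream of Ciita, the interferon-gamma route had a signal at its receptor and kinases but not at its ligand. Both receptor chains were detected on all 4 arrays, Ifngr1 at 4.25 ± 0.12 and Ifngr2 at 4.12 ± 0.12, as was the kinase gene Jak1 at 5.56 ± 0.33 (SD, n = 4 for all). This Jak1 level is that of its brighter probe, which had an intensity of 5403, 4364, 5287 and 4243 on replicates 1 to 4. The other Jak1 probe, also detected on all 4 arrays, had an intensity of 350, 229, 282 and 392. The brighter probe stood at 5.06 on replicate 4, where the spots around it had a median deviation of -0.28. The kinase gene Jak2 and the transcription factor gene Irf1 were detected on all 4 arrays as well. Ifng itself, made mainly by T and NK cells, was not detected and read 3.24, 2.97, 3.39 and 3.16. Socs1, a feedback inhibitor of the route, was not detected either.

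Of 8 genes looked up for the supply of peptides to class II molecules or the removal of these from the surface, 8 were detected on all 4 arrays, beside 50.8% of all named genes. Cathepsin S, which trims the invariant chain, had a level of 4.71 ± 0.08 (Ctss), cathepsin L one of 1.02 ± 0.11 (Ctsl), cathepsin B one of 9.80 ± 0.33 (Ctsb), and the endosomal protease legumain one of 5.49 ± 0.18 (Lgmn; SD, n = 4 for all). Ifi30, the thiol reductase of the endosome, the ubiquitin ligase genes Marchf1 and Marchf8, of which MARCH1 is known to lower surface class II and CD86, and Cd63 were the others.

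For costimulation, Cd80 lay at the detection limit and Cd86 below it. Cd80 had an intensity of 8.80, 18.2, 3.87 and 19.0 on replicates 1 to 4. It was well above background on replicates 2 and 4, by a small margin over the zone in which the flag varied. With the less strict flag Cd80 was detected on all 4 arrays, which raised the count of the set to 5 of 10, against 61.7% of all named genes. Its level was -3.29 ± 1.09 (SD, n = 4), a spread that includes readings below the flag. Cd86 read 2.88, 2.46, 2.48 and 2.30, as low as negative-control spots, although the region around its spot was bright on replicate 3, where 65.9% of its neighbours were detected and 13.1% left out.

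Other ligands that steer T cells were detected in part, with 4 of 9 measured genes on all 4 arrays, near the 50.8% of all named genes. Cd274, which encodes the inhibitory ligand PD-L1, had a level of -0.65 ± 0.21 and Cd276, a further B7 family member, one of 2.44 ± 0.27 (SD, n = 4 for both), and Tnfsf9 and the adhesion molecule gene Icam1 completed the count. Cd40, the receptor through which T cells license antigen-presenting cells, read 12.4, 6.58, 7.59 and 22.3 with its brighter probe and was detected on replicate 4 alone. Pdcd1lg2, the gene of the second PD-1 ligand, was not detected on replicates 1 to 3, where it read 2.36, 2.38 and 2.96, and it has no kept reading on replicate 4. Vtcn1, Tnfsf4 and Cd70 were detected on no array, and Icoslg had no named probe.

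Of 6 genes for the partners of these ligands on T cells, 3 were detected on all arrays, namely Cd28, Icos and Cd4. This is near the 50.8% of all named genes. Cd28 and Cd4 each have another probe that was detected on no array. Cd28, the receptor of CD80 and CD86, read 358, 285, 425 and 506 with one probe and 5.54, 2.16, 2.70 and 2.68 with the other. Icos, a related receptor, was detected on all 4 arrays by 2 probes and on 3 arrays by the remaining one, which read 17.6, 17.9, 13.1 and 19.8. Ctla4, the inhibitory receptor for the same ligands, was detected on replicate 4 alone, and Cd40lg and Pdcd1 were not detected. With every probe required on all 4 arrays the count was 0 of 6, beside 45% of all named genes. Markers of other antigen-presenting cells and of lymphocytes were detected in part. Of 6 measured dendritic cell genes Clec9a, Batf3 and Irf4 were detected throughout, and Zbtb46, Xcr1 and Ccr7 on no array. Clec9a and Irf4 each have another probe that was detected on no array, and 1 of the 6 genes remained, Batf3, when every probe had to be detected. Among B cell genes Pax5 was detected throughout, Cd79b on replicate 4, and Blnk on no array. Of 6 T cell genes Cd3d and Lck were detected throughout, Cd3g on replicate 4, and Cd3e, Cd2 and Cd8a on no array. What the markers with a signal contribute to any class II signal was not tested.

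Along rat chromosome 20, detected class II genes and undetected ones lay next to each other. In the RefSeq order of the genes looked up, RT1-Da and RT1-Db2, both undetected, were followed by RT1-Db1, RT1-Ba, RT1-Bb and RT1-DOb, of which RT1-Db1 and RT1-Bb were detected. Next came the class I loading genes Tap2, Psmb8, Tap1 and Psmb9, all detected on all 4 arrays, and then RT1-DMb and RT1-DMa. RT1-DOa and RT1-Ha, both undetected, and Tapbp, which was detected, closed the series. In the class I list 6 of 6 measured genes were detected throughout, beside 50.8% of all named genes, and Nlrc5 had no named probe. B2m, the light chain of class I molecules, had a level of 8.15 ± 0.14, and the peptide transporter genes Tap1 and Tap2 had levels of -0.41 ± 0.49 and 3.80 ± 0.25 (SD, n = 4 for all).

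**Figure D5:**
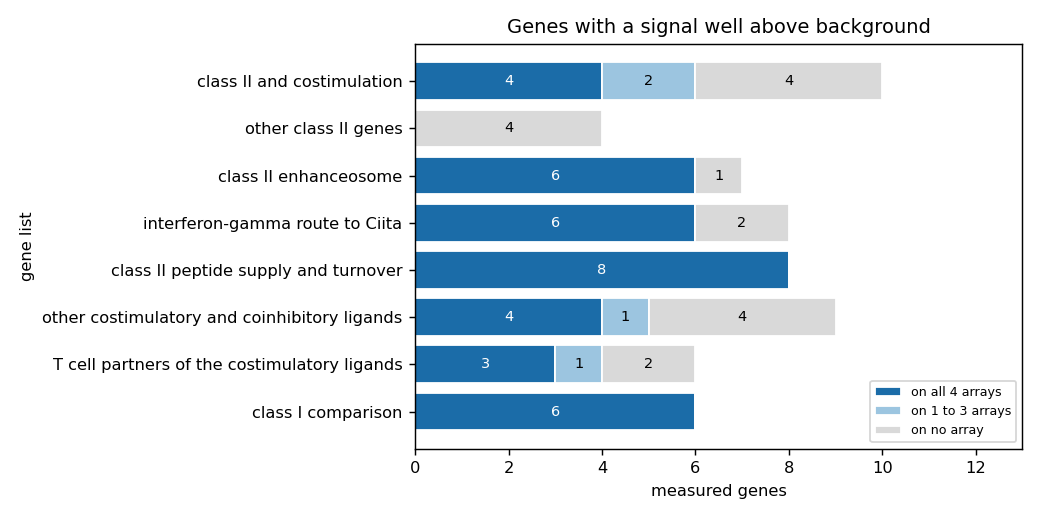
Number of measured genes (x axis) of each list (y axis) that were well above background on all 4 arrays, on 1 to 3 arrays or on no array. All measured genes were detected in the peptide supply list (8 of 8) and the class I list (6 of 6), the class II and costimulation set had 4 of 10, and none of the 4 other class II genes was detected. Of all named genes 50.8% were detected on all 4 arrays.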

How the data were processed

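The deposited files hold spot intensities on a linear scale, which the submitters' processing notes credit to version 11.0.1.1 of Agilent Feature Extraction, background-subtracted and without normalization between arrays per the file headers, together with flags of 0 or 1. Of 45598 non-control probes, 21109 were named by matching the accession without its version to the GRCr8 RefSeq table. Spots flagged as non-uniform or population outliers were left out. Log2 signals were averaged over a probe's spots, and the array's 75th percentile was subtracted. The probe with the highest mean stood for a gene, and a gene was detected on an array when any of its probes was. Neighbours of a spot lie within 10 rows and 5 columns. The number of arrays, 4, limits the precision, and with 1 group no test between groups was possible and no p-value is given. The members, lists and promoter motifs were chosen with earlier results of these data known. Every member probe was named, and values were given for at most the first 4 measured genes of the other pathway lists and for the first macrophage marker. Some genes of the lists are not reported here. Genes named in the observations were chosen after their values were seen. Alternatives changed the flag, the arrays or probes required, the scaling, the background correction and the spots left out. The files hold no mean spot signal, so normexp, with an offset of 50, was run on median signals. The calculation of levels was tested on simulated data. Python 3.11.15, numpy 2.4.6, pandas 2.3.3, matplotlib 3.10.9, R 4.3.3 and limma 3.58.1 were used.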

Additional observations from a re-analysis of the deposited data

Results flagged for a closer look

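Dixon's criterion was applied to 38 probes, those of the class II and costimulatory set and those of the first measured genes of each pathway list. In 5 of them 1 array lay far from the other 3 by this criterion, which chance meets in about 1 of 20 probes. RT1-DOa and RT1-Ha, both below background, were lowest on replicate 4, at -5.46 for each. Their intensities there were 2.89 and 2.88, within the range of 2.64 to 3.28 on the other arrays, and the 75th percentile that was subtracted was highest on replicate 4. Jak1, with its brighter probe, was lowest on replicate 4, at 5.06. Ctss was lowest on replicate 2, at 4.59. Tap2 was highest on replicate 3, at 4.17. None of the 11 probes of the class II and costimulatory set was among them.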

How the results depend on the processing

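The count of 4 detected genes was the same in 8 of 9 alternatives, and 5 with the less strict flag. The pathway count, 33 of 48 genes, ranged from 30 to 36, and that of the cell type markers, 18 of 30, from 16 to 20. The share of all named genes, 50.8%, ranged from 45% to 61.7%. Levels depend on the scaling by construction. The median level of the 10 genes, -3.53, was -6.93 with the 75th percentile of detected probes, 0.05 with the array median and -1.07 with normexp, while the median detected gene shifted by -3.41, 3.58 and -0.46. It ranged from -3.87 to -3.08 with 1 replicate left out. The median SD of the 4 detected genes, 0.365, was 0.24 with normexp and ranged from 0.296 to 0.402 with 1 replicate left out. With the array median the SD of RT1-Db1 was 0.268, and the median SD of detected genes was 0.39 in place of 0.165. Without replicate 2, the SD of RT1-Db1 was 0.28 and that of RT1-DMa 0.09. With the outlying spots kept, RT1-Da had a level of -3.95. The planned normexp on mean signals was not run. No paired analysis was possible because all samples belong to 1 group.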

Other observations

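Of all genes in the lists looked up, 6 were detected on exactly 1 array, namely Ciita, Cd40, Ctla4, Marco, Cd79b and Cd3g, and for all 6 that array was replicate 4. Ctla4 read 6.65, 10.2, 6.77 and 58.9 on replicates 1 to 4 with its brighter probe. Among all named genes detected on exactly 1 array, 80 were on replicate 1, 115 on replicate 2, 158 on replicate 3 and 661 on replicate 4. The X box stretch followed by the Y box core at 12 to 30 letters was found in promoter windows of 21 genes. Of these 16 were on the array and 7 were detected on all 4 arrays, beside 50.8% of all named genes. Besides RT1-Db1, RT1-Bb and RT1-DMa these were Cs, Mtmr4, Nf2 and Tmem14c.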
